A study of Mus musculus with 9 samples.

Results

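The AP-1 subunits are the 9 genes Fos, Fosb, Fosl1, Fosl2, Jun, Junb, Jund, Atf3 and Maff, taken by gene symbol from the 24060 genes of a deposited RNA-seq table. They were described in ROP7 peptide-activated CD8 T cells of 3 transnuclear mouse lines, R7-I, R7-II and R7-III, with 3 libraries of each. Transnuclear mice were made by transfer of the nucleus of 1 Toxoplasma-specific CD8 T cell, so that all T cells of a line that use this rearrangement share 1 T cell receptor (TCR) in its endogenous locus. The submitters rank the affinity of the 3 TCRs for the ROP7 peptide as R7-I above R7-III above R7-II, and their self-reactivity as R7-III above R7-I above R7-II, and the comparison asks how transcripts of activated cells differ between these receptors.

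All 3 lines were on a BALB/c background with functional Rag2, and their splenocytes were held overnight in medium with IL-2 at 10 ng/ml and the ROP7 peptide at 10 µM before cells positive for CD3, CD8 and the H-2Ld-Rop7 tetramer were sorted to a stated 90 to 95% purity. Every library is thus from peptide-activated cells, and unstimulated cells were not analysed here, so no value below says how far a gene moved on activation. Each line stands for 1 receptor, and a property of the receptor and a property of the mouse line cannot be told apart. The labels call the libraries of a line biological replicates, and the number of mice behind them and their age are not given in the sources used here. Levels are in TPM, a length-corrected measure of the share of a gene among all transcripts that has the same total in every library and keeps no read depth, so no counting error is given. The labelled cell type was checked: the 11 T lineage markers, CD3 chains and Cd8a and Cd8b1 among them, summed to between 3414 and 4397 TPM in all 9 libraries, and no marker was at 0.

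AP-1 is a family of basic leucine zipper transcription factors that bind DNA as dimers. Fos proteins need a Jun partner, whereas Jun proteins can also pair with each other and with Atf and Batf proteins, and in T cells AP-1 binds beside NFAT at cytokine genes after TCR and costimulatory signals. Fos and Fosb are immediate early genes that are switched on through ERK and serum response factor, Atf3 is a stress-inducible factor that often represses its targets, and Maff is a small Maf protein without an activation domain of its own that pairs with Bach and Nfe2 factors.

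In activated R7-II cells 2 of the 9 subunits were higher and 2 were lower than in both other clones. Fos was 1.99 times and Fosb 4.62 times the R7-I mean, while Junb was at 0.706 and Atf3 at 0.433 of it. The other 5 subunits, Fosl1, Fosl2, Jun, Jund and Maff, did not pass the test in either R7-II comparison, and none of the 9 passed between R7-III and R7-I. The test was limma on log2(TPM + 1) with the Benjamini-Hochberg adjusted p of 0.01 over the 11330 genes with a maximum TPM above 1, all 9 subunits among them and each above 1 TPM in every library. The called share of subunits, 4 of 9 or 44.4%, stood beside 56.1% of all genes tested between R7-II and R7-I and 53.6% between R7-II and R7-III, so the number called was not above that of genes at large. Both R7-II comparisons share the same R7-II libraries and are therefore given side by side and not as separate evidence.

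The 4 subunits that passed are shown with the bases before a RefSeq transcription start. All 4 windows hold the letters TGACG, the core of the cAMP response element (CRE), on 1 of the strands. TGACG was 1 of several motifs searched and is put forward because of these matches, so it is a description and not a test. The 4 include Fos and Fosb, higher in R7-II, and Junb and Atf3, lower in it. The 250 bases before the start come from RefSeq on GRCm38.p6, the same build as mm10, and are written 5′ to 3′ on the gene's own strand. Capitals mark TGACG or its reverse complement CGTCA and, in Fos, the TATAA box.

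Fos, chr12:85473640-85473889, plus strand: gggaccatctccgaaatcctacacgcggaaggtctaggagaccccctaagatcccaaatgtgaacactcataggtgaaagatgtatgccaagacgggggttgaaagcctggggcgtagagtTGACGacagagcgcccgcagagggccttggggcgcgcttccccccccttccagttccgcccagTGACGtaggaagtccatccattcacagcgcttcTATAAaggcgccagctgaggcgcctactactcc
Fosb, chr7:19310046-19310295, minus strand: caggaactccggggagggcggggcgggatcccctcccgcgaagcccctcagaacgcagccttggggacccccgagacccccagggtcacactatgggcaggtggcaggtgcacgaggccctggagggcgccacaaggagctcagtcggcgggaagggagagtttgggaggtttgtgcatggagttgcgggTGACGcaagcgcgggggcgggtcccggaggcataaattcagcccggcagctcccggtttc
Junb, chr8:84978749-84978998, minus strand: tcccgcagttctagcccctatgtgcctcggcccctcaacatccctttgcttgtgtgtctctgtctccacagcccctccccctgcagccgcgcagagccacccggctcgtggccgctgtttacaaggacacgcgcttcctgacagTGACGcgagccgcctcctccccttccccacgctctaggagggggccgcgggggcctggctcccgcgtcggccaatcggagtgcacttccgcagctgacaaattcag
Atf3, chr1:191183334-191183583, minus strand: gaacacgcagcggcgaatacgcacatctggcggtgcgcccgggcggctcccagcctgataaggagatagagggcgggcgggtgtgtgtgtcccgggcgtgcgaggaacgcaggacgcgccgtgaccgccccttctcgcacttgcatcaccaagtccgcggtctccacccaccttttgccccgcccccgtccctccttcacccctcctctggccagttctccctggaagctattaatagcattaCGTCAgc

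In the Fos window TGACG begins 129 and 66 bases before the start and TATAA 33 bases before it. TGACG begins 60 bases before the start used for the Fosb window and 106 before that of Junb. In Atf3 it lies on the opposite strand, from 7 to 3 bases before the start. The Fosb window, from position 19310046, overlaps the RefSeq span of this minus-strand gene, which ends at 19310118. The start used for Fosb thus lies inside that span, as does its TGACG. Of all 32851 RefSeq windows of this length, 17.8% hold TGACG on either strand. Of the 4 subunits with an entry that did not pass, Fosl2, Jun, Jund and Maff, it was in Maff only, which has 3 start sites. Fosl1 has no entry. The whole CRE, TGACGTCA, which contains the TGACG core, was in 1 Maff window and in 1.55% of all windows, and the AP-1 site TGAGTCA was in none of the 10 windows of subunits and in 4.46% of all. The serum response element was likewise in none of the 10 windows, against 1.47% of all, and TATAA was in 22.8% of all. These matches describe letters and not bound sites. Only the 250 bases before each start were searched, so a site farther upstream, such as a serum response element, would not be seen.

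The genes lie apart from each other on mm10, apart from Junb and Jund, which share a chromosome. The RefSeq positions were chr12:85473890-85477274 for Fos, chr7:19302696-19310118 for Fosb, chr19:5447698-5455938 for Fosl1 and chr5:32136472-32157840 for Fosl2. Those of the Jun members were chr4:95049036-95052222 for Jun, chr8:84976909-84978748 for Junb and chr8:70697739-70700616 for Jund. Atf3 is at chr1:191170296-191183333 and Maff at chr15:79346621-79359078. Jun and Jund have 1 exon each in the GENCODE annotation. The libraries were not strand-specific, and Fosl1 overlaps Ccdc85b on the opposite strand, so reads of these genes cannot be told apart where they overlap. Ccdc85b stood at a mean of 14.3 TPM in R7-I, 16.2 in R7-II and 14.4 in R7-III. In GENCODE, though not in the RefSeq gene spans, Junb also overlaps Prdx2 on the opposite strand, a gene with means of 94.4, 88.4 and 120 TPM in R7-I, R7-II and R7-III. Jun and Jund overlap the antisense genes Junos and Gm11175 there, for which no values were used here. The part of such reads in the levels of Junb, Jun and Jund was not tested.

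Among the Fos members, Fos itself, the founding member, was at 5.36, 6.37 and 5.39 TPM in R7-I, at 12.31, 12.91 and 8.8 in R7-II and at 5.16, 6.27 and 7 in R7-III. The 3 highest values were those of R7-II, with its replicate 3 nearest to the other 6 libraries. The means were 5.71 ± 0.575 in R7-I, 11.3 ± 2.22 in R7-II and 6.14 ± 0.927 in R7-III (SD, n = 3 libraries each). Fos rose in R7-II by a log2 difference of 0.87 from R7-I and 0.78 from R7-III (standard error 0.14 in both, limma adjusted p = 2.73e-04 and 6.00e-04). Between R7-III and R7-I it was 0.09, with a 95% interval from -0.22 to 0.40. In bulk RNA, fewer cells with a transcript and less of it per cell cannot be told apart, here or for any gene below.

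Fosb, the close relative of Fos, was at 1.28, 1.59 and 1.34 TPM in R7-I, at 6.27, 6.42 and 6.76 in R7-II and at 1.25, 1.21 and 1.33 in R7-III. The R7-II libraries lay close together and far above the other 6. The means were 1.40 ± 0.164, 6.48 ± 0.251 and 1.26 ± 0.0611 TPM (SD, n = 3), and the R7-II mean was 5.13 times that of R7-III. Its log2 differences were 1.64 from R7-I and 1.73 from R7-III (standard error 0.0918, limma adjusted p = 1.89e-07 and 1.60e-07), the largest of any subunit in either direction. On the log2(TPM + 1) scale the change of such a low gene is understated.

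Fosl1 and Fosl2 encode the Fos-related proteins Fra-1 and Fra-2, which lack the transactivation domain of Fos. Fosl1 was at 25.2, 19.31 and 25.08 TPM in R7-I, at 25.8, 19.77 and 19.96 in R7-II and at 18.67, 19.16 and 22.5 in R7-III. Fosl2 was at 16.57, 16.89 and 15.81, at 17.52, 16.14 and 16.19 and at 16.18, 18.11 and 16.6 in the same order. For both genes the clones overlapped. The difference of R7-II from R7-I was -0.08 for Fosl1 (95% interval from -0.36 to 0.19 on the log2 scale) and 0.02 for Fosl2 (from -0.12 to 0.15), so that differences within these bounds could not be seen.

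**Figure D1:**
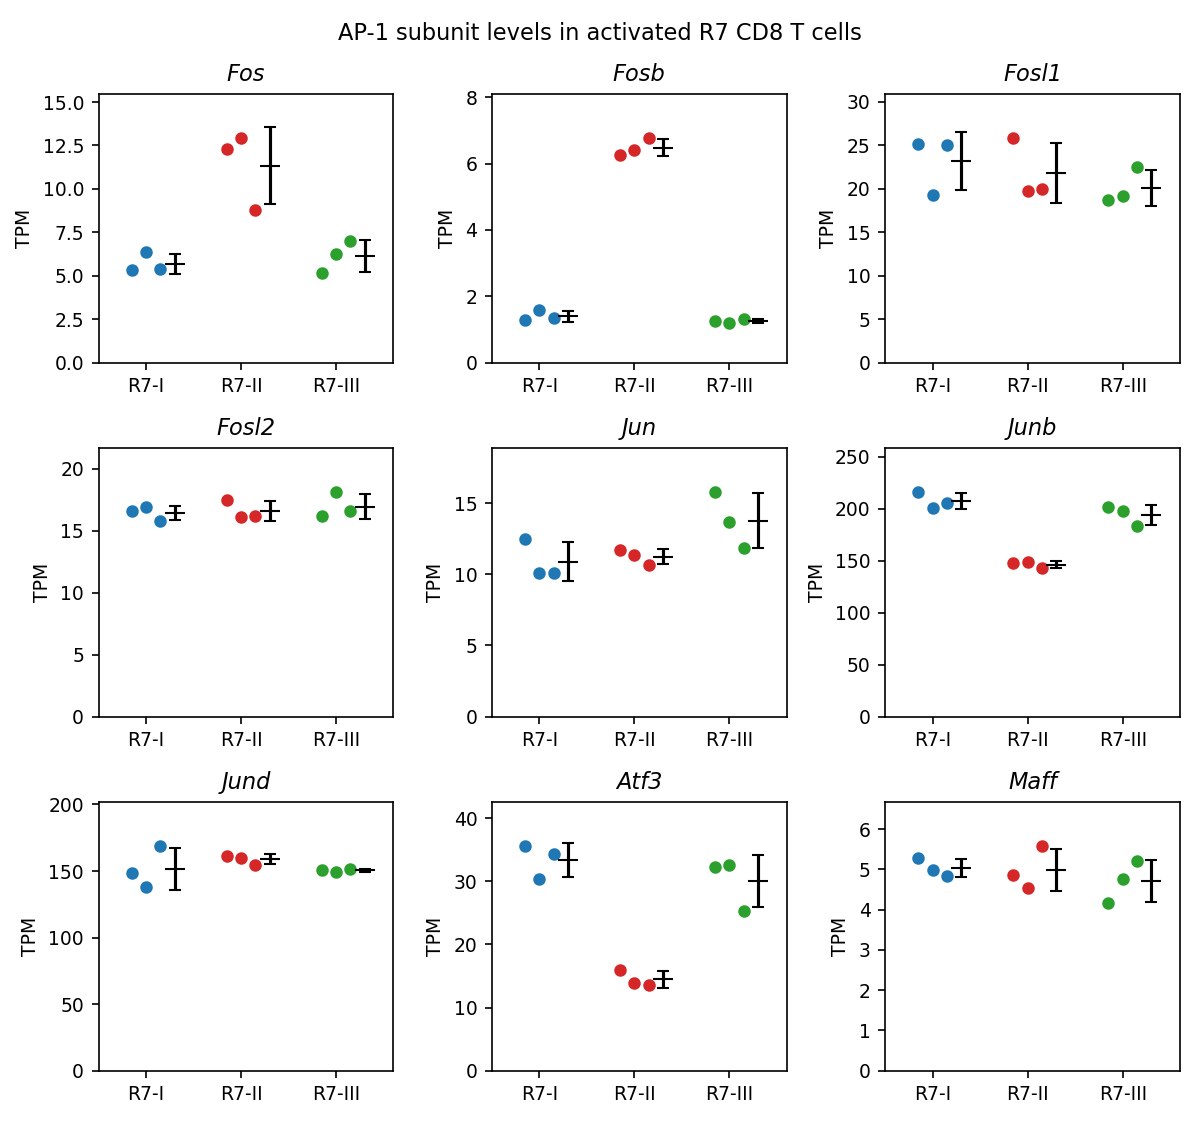
TPM of each AP-1 subunit (y axis, linear from 0) in the 9 libraries by clone (x axis). Points are single libraries and the black bar beside them is the mean ± SD of 3. Fosb and Fos are highest and Junb and Atf3 lowest in all 3 R7-II libraries, while the clones overlap for Fosl1, Fosl2 and Maff.

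Junb, which encodes a Jun protein that can restrain Jun in some settings and is a main partner of Fos and Batf proteins in lymphocytes, was the most abundant subunit in R7-I and R7-III. It was at 215.66, 200.7 and 205.35 TPM in R7-I, at 147.39, 148.75 and 142.48 in R7-II and at 201.18, 197.75 and 183.39 in R7-III. The 3 R7-II libraries lay below the other 6, and each clone's libraries were close together. The means were 207 ± 7.66, 146 ± 3.30 and 194 ± 9.44 TPM (SD, n = 3). Junb fell by 0.50 on the log2 scale against R7-I and by 0.41 from the R7-III level (standard error 0.0408, limma adjusted p = 2.33e-06 and 1.05e-05). R7-III differed from R7-I by -0.09 on that scale (95% interval from -0.18 to -0.0040, unadjusted p = 0.0422 and adjusted p = 0.138 from limma).

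Jund, the Jun protein that most resting cells express, was at 148.15, 138.07 and 168.54 TPM in R7-I, at 161.65, 160.02 and 154.47 in R7-II and at 151.08, 149.43 and 151.3 in R7-III. R7-I replicates spanned the range of the other clones, and the R7-II libraries were all just above those of R7-III. The log2 difference of R7-II was 0.07 against each clone (95% intervals from -0.06 to 0.20 and from -0.05 to 0.20, adjusted p = 0.302 and 0.276 from limma). Without R7-I replicate 3 the difference from R7-I was 0.15 and passed the threshold (adjusted p = 0.00739 from limma).

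Jun, the founding Jun member and an activator that pairs with Fos, was at 12.48, 10.1 and 10.08 TPM in R7-I, at 11.69, 11.38 and 10.65 in R7-II and at 15.75, 13.68 and 11.86 in R7-III. Its highest values were in R7-III, whose lowest library was just above the highest of R7-II but below R7-I replicate 1. The log2 difference was -0.26 between R7-II and R7-III (95% interval from -0.50 to -0.03, adjusted p = 0.0456 from limma) and 0.31 between R7-III and R7-I (from 0.08 to 0.54, adjusted p = 0.0643 from limma), and neither passed 0.01. Between R7-II and R7-I it was 0.05 (from -0.18 to 0.28).

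Atf3 was at 35.52, 30.38 and 34.3 TPM in R7-I, at 15.96, 13.84 and 13.58 in R7-II and at 32.22, 32.58 and 25.25 in R7-III. Every R7-II library was below the other 6, and R7-III overlapped R7-I. The means were 33.4 ± 2.69, 14.5 ± 1.31 and 30.0 ± 4.13 TPM (SD, n = 3), and the R7-II mean was 0.482 of that of R7-III. Atf3 fell by 1.15 on the log2 scale from the R7-I level and by 1.00 from the R7-III level (standard error 0.101, limma adjusted p = 3.65e-06 and 1.06e-05). By the fitted log2(TPM + 1) value, Atf3 and Fosb changed more than 2-fold between R7-II and R7-I, as did 7.25% of all genes tested. Between R7-II and R7-III, where 7.58% of all genes did, Fosb was past that mark and Atf3, at -0.999, fell just short of it, although it was past it by the ratio of mean TPM and after median-of-ratios scaling (-1.12).

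Maff was near 5 TPM in every clone, with libraries between 4.17 and 5.57. The clones overlapped, and the log2 difference of R7-II was -0.01 from R7-I (95% interval from -0.22 to 0.20) and 0.07 from R7-III (from -0.14 to 0.28).

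For single subunits the exact two-sided permutation test of 3 against 3 libraries cannot go below p = 0.1, which Fos, Fosb, Junb and Atf3 gave in both R7-II comparisons. Jun and Jund, which limma did not call, also gave this value between R7-II and R7-III. With the 3 R7-II libraries against the other 6, the same exact test gave p = 0.0238 for Fos, Fosb, Junb and Atf3, the smallest value this design allows, and between 0.262 and 0.929 for the other 5. The share of all genes that reach these limits was not computed, while limma called 56.1% and 53.6% of them in the R7-II comparisons. Reaching a limit therefore does not set a subunit apart from genes at large. The test against the other 6 libraries also takes R7-I and R7-III as 1 group. The exact tests used the same libraries as the limma calls and are not separate evidence. In the comparison of R7-III and R7-I, where 8.41% of all genes passed (6.96% higher and 1.45% lower in R7-III), 0 of 9 subunits did with limma, and 2, Jun and Junb, had an unadjusted p under 0.05.

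**Figure D2:**
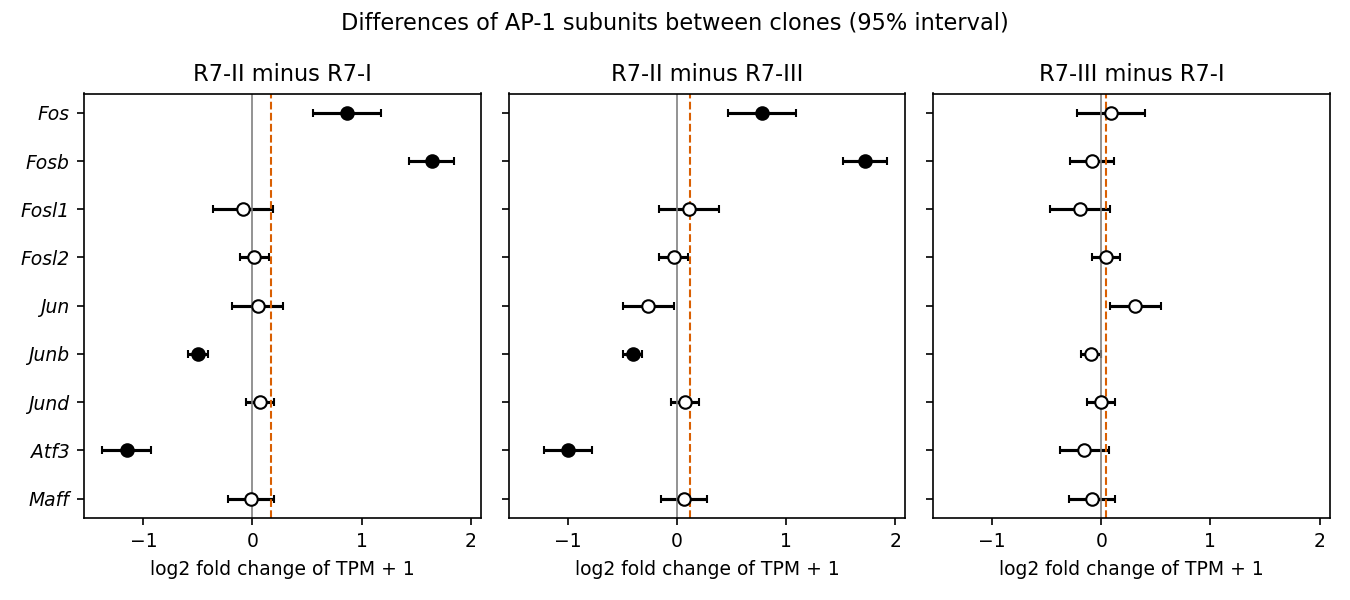
Log2 fold change of TPM + 1 (x axis) of each subunit (y axis) for the 3 pairs of clones, with 95% intervals from limma. Filled points passed an adjusted p of 0.01, the grey line is 0 and the dashed line is the median of all 11330 genes. In both R7-II comparisons Fos and Fosb lie to the right and Junb and Atf3 to the left, and no point is filled between R7-III and R7-I.

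Over all genes tested, the median log2 difference of R7-II was above 0, at 0.17 from R7-I and 0.12 from R7-III. This is a shift of the median and not of every gene, because TPM has the same total in every library. Relative to that median, Fos was 0.70 and 0.66 higher, Fosb 1.47 and 1.60 higher, Junb -0.67 and -0.53 and Atf3 -1.32 and -1.12. After median-of-ratios scaling of the libraries, which removes most of this shift, the log2 differences from R7-I and R7-III were 0.71 and 0.67 for Fos and 1.51 and 1.62 for Fosb. They were -0.68 and -0.53 for Junb and -1.32 and -1.12 for Atf3. Direction and call of these 4 were thus the same under both scalings. Fosl2, Jun and Jund, by contrast, turned from above 0 to below 0 against R7-I with that scaling, at -0.15, -0.11 and -0.10.

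Because TPM is corrected for transcript length, levels of different subunits can be compared. The 9 subunits together summed to 455 ± 23.1 TPM in R7-I, 392 ± 12.6 in R7-II and 438 ± 11.5 in R7-III (SD, n = 3). Junb and Jund made up most of this, and over all libraries they ranked 883 and 1076 in mean level among the 11330 genes tested, while Fosb ranked 9437. Atf3, Fosl1, Fosl2, Jun, Fos, Maff and Fosb followed in falling order of their mean over all libraries. In R7-II the order was another, with Jund (159 TPM) above Junb (146), Fosl1 (21.8) and Fosl2 (16.6) above Atf3 (14.5), Fos (11.3) above Jun (11.2) by less than their spread, and Fosb (6.48) above Maff (4.99). The order of the clones was R7-II, R7-III, R7-I for Fos and R7-II, R7-I, R7-III for Fosb, and R7-I, R7-III, R7-II for both Junb and Atf3. In each of these 4 the clones R7-I and R7-III overlapped.

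Both branches of the family had another make-up in R7-II, which is given as a description. Junb was 1.38 ± 0.136 times Jund in R7-I and 1.29 ± 0.0667 times in R7-III, and 0.921 ± 0.00895 times in R7-II (SD, n = 3), with all R7-II libraries below 1 and all others above it. Fos and Fosb together were 15.3% ± 2.38 of the summed TPM of the 4 Fos members in R7-I, 31.7% ± 2.85 in R7-II and 16.6% ± 1.02 in R7-III (SD, n = 3). Within that pair, Fos was 4.07 times Fosb in R7-I and 4.86 times in R7-III but 1.76 times in R7-II. The summed Jun members were 7.91 ± 0.145 times the summed Fos members in R7-I, 5.64 ± 0.406 times in R7-II and 8.10 ± 0.807 times in R7-III, and the R7-II libraries did not overlap the others. These ratios follow from the members' own values and were given no test.

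**Figure D3:**
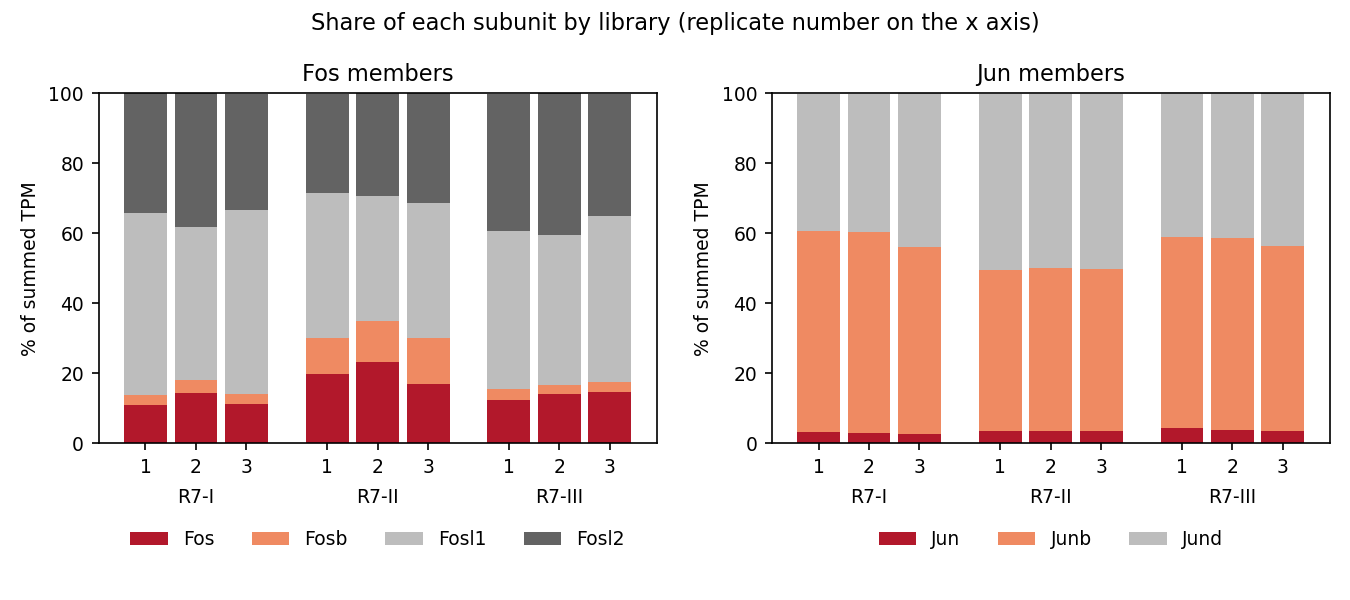
Share of each subunit in the summed TPM of the 4 Fos members (left) and the 3 Jun members (right), in % (y axis), for each library (x axis, replicate number and clone). Fos and Fosb take 30.0 to 35.0% of the Fos members in the R7-II libraries and 13.7 to 18.0% in the other 6, and Jund is the largest Jun share only in the R7-II libraries.

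Over the 9 libraries the levels of Junb and Atf3 moved alike. Of all genes tested, Atf3 had the highest Pearson correlation of log2(TPM + 1) with Junb, and Junb with Atf3 (r = 0.991, n = 9), followed by Nip7 for Junb (0.991) and Usp46 for Atf3 (0.988). Rab1b and Dusp28 were most like Fos (0.986 for both), and Hpcal1, a calcium sensor, and Cyld, a deubiquitinase, were most like Fosb (0.997 and 0.996). Hpcal1 had a mean of 15.1 TPM in R7-I, 91.6 in R7-II and 14.6 in R7-III. For the subunits that did not pass, the best likeness was lower, from 0.888 for Fosl2 with Gm14305 to 0.947 for Jund with B9d1. Between the subunits themselves, r was 0.91 for Fos with Fosb and -0.96 and -0.97 for Fosb with Junb and Atf3. With 3 clones these values mostly carry the difference of R7-II from the rest, the points share clones and scaling, and no p is given.

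Markers of other cells also moved with R7-II. The 8 B cell markers summed to between 8.11 and 14.98 TPM in R7-I, 33.2 and 69.9 in R7-II and 5.06 and 7.27 in R7-III, and 7 of the 7 tested were higher in R7-II than in each clone. The 7 MHC class II genes summed to between 32.4 and 50.3, 112 and 183, and 24.3 and 28.1 TPM, and all 7 were higher in both comparisons. Of the myeloid markers in the table, 11 in number, 7 of 10 tested were higher against R7-I and 8 against R7-III, with sums of 5.09 to 6.23, 25.5 to 89.5 and 5.74 to 7.15 TPM. In R7-II replicates 1, 2 and 3 the myeloid sum was 47.4, 25.5 and 89.5 TPM. The B cell sum was 69.9, 33.2 and 53.9 TPM and the MHC class II sum 183, 112 and 181 TPM. Fos was at 12.31, 12.91 and 8.8 TPM and Fosb at 6.27, 6.42 and 6.76 TPM in the same order. Without R7-II replicate 3 Fos differed by 1.02 from R7-I and by 0.94 from R7-III on the log2 scale, and Fosb by 1.61 and 1.70. Without R7-II replicate 1 these differences were 0.80 and 0.72 for Fos and 1.66 and 1.75 for Fosb. The 4 NK cell markers summed to at most 0.17 TPM in any library, Klra8 was at 0 in all of them, and none passed the filter. Of the CD4 T cell markers, 1 of 3 passed the filter, and this gene, Foxp3, was higher in R7-II when set against R7-III (log2 fold change 0.59, adjusted p = 0.00410 from limma). The part of these cells in the values of the subunits was not tested.

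The lists that follow hold genes of the pathway by role. Their 3 most abundant genes were named by rule, and the others were named after their values were seen. In all genes tested, R7-II was called higher for 40.6% and lower for 15.5% against R7-I, and higher for 35.6% and lower for 18% against R7-III. After median-of-ratios scaling the higher share of the genes called went from 72.4% to 47.7% and from 66.4% to 47.9%, so counts by direction are given under both scalings where they differ.

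Of 9 other dimer partners tested, 4 were higher and 1 lower against R7-I (2 and 3 after scaling), and 3 were higher and 3 lower against R7-III under both. Atf2, a CRE-binding partner of Jun, was at 40.5 ± 1.18 TPM in R7-I, 52.4 ± 2.82 in R7-II and 38.4 ± 1.63 in R7-III (SD, n = 3), with log2 fold changes of 0.36 and 0.44 (adjusted p = 8.59e-05 and 2.35e-05 from limma). Atf4, the most abundant of them at 725 to 800 TPM in the clone means, was lower against R7-III (-0.14) and missed the threshold against R7-I (-0.11, adjusted p = 0.0164 from limma). Batf, which pairs with Jun proteins and lacks an activation domain, was at 37.6 ± 2.38, 29.4 ± 5.25 and 42.1 ± 0.672 TPM (SD, n = 3). Its difference of -0.52 from R7-III passed while that of -0.36 from R7-I did not (adjusted p = 0.00129 and 0.0108 from limma). These calls are for TPM as deposited. Lower calls against R7-I rose from 1 to 3 after scaling, so the misses of Atf4 and Batf there may depend on it. Batf3, a relative of Batf, was at 0.14, 0 and 0.33 TPM in R7-II and between 0.55 and 2.58 in the other libraries. Ddit3, a stress-induced partner of C/EBP proteins, was higher in R7-II by 0.81 and 0.88 on the log2 scale.

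Maff itself did not pass, but some of its possible partners did. Of 6 Maf, Bach and Nfe2 factors tested, 3 were higher and 1 lower in R7-II against R7-I (2 and 2 after scaling), and 2 were higher and 0 lower against R7-III (2 and 1 after scaling). Bach1, a repressor that binds with small Maf proteins, was at 4.9, 4.74 and 4.88 TPM in R7-I, at 13.67, 10.48 and 13.17 in R7-II and at 3.98, 4.02 and 4.77 in R7-III, and its R7-II libraries stood clear of the others. Its log2 fold changes were 1.19 and 1.35 (adjusted p = 3.08e-06 and 1.29e-06 from limma). Bach2, which restrains effector genes in T cells, was higher against R7-I (0.30) with TPM as deposited. It missed the threshold against R7-III (0.18, adjusted p = 0.0116 from limma). As 2 and not 3 factors were higher against R7-I after scaling, the call of Bach2 may depend on it. Mafk, a small Maf, was lower against R7-I (-0.13, adjusted p = 0.00998 from limma) and was 0.01 from R7-III, and Nfe2l1 passed in neither.

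Of the 17 genes of the ERK and serum response arm, which leads to Fos and Fosb, 9 were higher and 1 lower against R7-I (7 and 6 after scaling), and 8 were higher and 2 lower against R7-III (5 and 3 after scaling). Mkl1, a coactivator of serum response factor, was at 18.8 ± 1.14 TPM in R7-I, 40.8 ± 4.81 in R7-II and 20.3 ± 1.06 in R7-III (SD, n = 3), with log2 fold changes of 1.07 and 0.97 (adjusted p = 1.49e-06 and 3.05e-06 from limma). Srf, which encodes the factor itself, did not pass, with differences of -0.02 (95% interval from -0.11 to 0.07) and 0.03 (from -0.06 to 0.12). Rps6ka1 was 0.15 and 0.21 higher and passed only against R7-III, and Map2k2 was lower against R7-III by -0.11. Hras was lower in both (-0.41 and -0.45).

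Of 12 genes of the JNK and p38 arm, which acts on Jun and Atf2 proteins, 8 were higher and 0 lower against R7-I (6 and 2 after scaling), and 7 were higher and 1 lower against R7-III (6 and 1 after scaling). Mapk14, which encodes p38 alpha, was at 78.4 ± 2.11, 101 ± 3.97 and 82.9 ± 5.09 TPM (SD, n = 3) and was higher by 0.36 and 0.29 (adjusted p = 6.25e-05 and 3.64e-04 from limma). Map2k3 passed in neither comparison, and Mapkapk2 was lower against R7-III alone (-0.13). Mapk8, which encodes JNK1, was -0.01 and 0.07 from the other clones and did not pass.

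Of 6 genes for turnover of AP-1 proteins and mRNAs, 4 were higher and 0 lower in both comparisons (3 and 1, and 4 and 1, after scaling). They were Itch, a ubiquitin ligase for Jun and Junb proteins, and Zfp36, Zfp36l1 and Zfp36l2, which bind AU-rich elements of short-lived mRNAs such as Fos and promote their decay. Zfp36 was at 65.3 ± 1.77 TPM in R7-I, 100 ± 7.71 in R7-II and 63.6 ± 0.847 in R7-III (SD, n = 3), with log2 fold changes of 0.61 and 0.64 (adjusted p = 2.85e-06 and 1.85e-06 from limma). Zfp36l1 was higher by 0.47 and 0.42 and Zfp36l2 by 0.55 and 0.61.

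Other immediate early genes went both ways. Of 16, 7 were higher and 4 lower against R7-I (3 and 7 after scaling), and 5 were higher and 3 lower against R7-III (5 and 5 after scaling). Egr1, a target of the same ERK and serum response input as Fos, was at 98.0 ± 3.08 TPM in R7-I, 178 ± 12.3 in R7-II and 98.8 ± 4.38 in R7-III (SD, n = 3), with log2 fold changes of 0.85 and 0.84 (adjusted p = 3.25e-07 and 3.53e-07 from limma). Dusp1, a phosphatase of MAP kinases, was higher by 1.31 and 0.99 and Btg2, an antiproliferative gene, by 1.12 and 1.02. Nr4a1, which encodes Nur77, was higher by 0.36 and 0.48. Myc was lower by -0.25 and -0.13 and Ier3 by -1.18 and -1.22, while Dusp2, the most abundant of the phosphatases listed, was 0.14 from R7-III and narrowly missed the threshold there (adjusted p = 0.01002 from limma).

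Most genes that NFAT and AP-1 drive together were lower in R7-II. Of 10 cytokine and effector genes 7 were tested, and 6 were lower and 0 higher in both comparisons (6 and 7 lower after scaling), beside a median of all genes above 0. Il2, the growth factor whose promoter is the textbook site of NFAT and AP-1 binding, was at 144.79, 147.45 and 166.7 TPM in R7-I, at 35.84, 58.11 and 52.33 in R7-II and at 185.71, 176.2 and 226.37 in R7-III. Ifng was at 153.39, 160.46 and 132.79, at 25.22, 36.91 and 47.53 and at 121.18, 117.02 and 127.71 TPM in the same order. In both genes every R7-II library was far below the other 6, and the log2 fold changes were -1.66 and -2.01 for Il2 and -2.04 and -1.76 for Ifng (adjusted p from 1.37e-06 to 8.37e-06 from limma).

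Il3, a growth factor for blood cell precursors, showed the largest difference of the list, with 11.72 to 12.79 TPM in R7-I, 0.12 to 0.41 in R7-II and 20.07 to 20.98 in R7-III (log2 fold changes of -3.42 and -4.10). Csf2 and Fasl were also lower in both comparisons, by -1.11 and -1.85 and by -1.44 and -1.16. Without scaling, Tnf was lower against R7-I only (-0.50, and -0.15 with adjusted p = 0.102 from limma against R7-III). Cd40lg was lower against R7-III only (-1.03, and -0.23 with adjusted p = 0.297 from limma against R7-I). After median-of-ratios scaling all 7 genes tested were lower against R7-III, Tnf among them. Il4, Il5 and Il13 did not pass the filter. With TPM as deposited, genes of this list also passed between R7-III and R7-I, where Csf2 and Il3 were higher in R7-III by 0.74 and 0.68 and Tnf was lower by -0.35, while no AP-1 subunit passed.

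**Figure D4:**
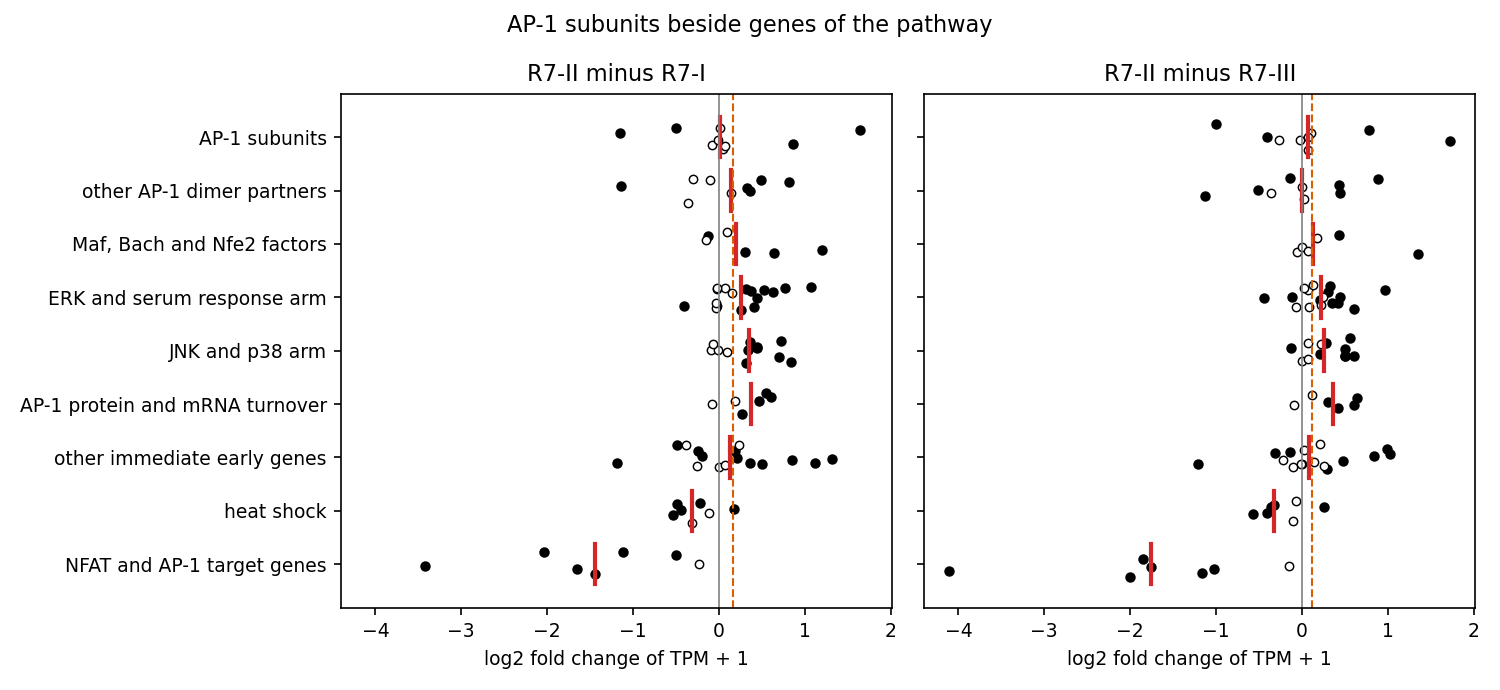
Log2 fold change of TPM + 1 (x axis) of the genes tested in each list (y axis) for R7-II against R7-I and against R7-III. Each point is a gene, filled where it passed an adjusted p of 0.01, red bars are list medians and the dashed line is the median of all genes. The subunits spread to both sides with a median of 0.02 and 0.07, and the NFAT and AP-1 target genes lie to the left with a median of -1.44 and -1.76.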

How the data were processed

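Activated and sorted CD8 T cells of the 3 clones gave 9 libraries. The authors aligned and quantified single-end, non-strand-specific reads with RSEM 1.2.11 on RefSeq genes of mm10 and deposited TPM per gene symbol. The sources used here do not name the aligner behind RSEM. DESeq2 1.8.1 was the authors' test, on counts that were not used here. TPM keeps no depth, so no counting interval is given.

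From the deposited TPM, log2(TPM + 1) of the genes with a maximum TPM above 1, the cut-off of the study applied here to these 9 libraries only, was fitted with R 4.3.3 and limma 3.58.1 (eBayes with trend after lmFit). The 9 libraries entered 1 fit, p-values were adjusted by Benjamini-Hochberg over every gene tested, and the threshold was 0.01. The fit was tested on simulated data. Exact two-sided permutation tests used scipy 1.17.1 in Python 3.11.15. Libraries of a clone correlated at 0.992 to 0.997 and no pair was identical.

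The subunits and lists were chosen with earlier results of these data known. The lists were other dimer partners, Maf, Bach and Nfe2 factors, the ERK and serum response arm, the JNK and p38 arm, turnover, other immediate early genes, NFAT and AP-1 targets, heat shock, and T lineage, B cell, MHC class II, myeloid, CD4 T cell, NK cell and erythroid genes. Named by rule were all subunits, the 3 most abundant genes of each list (1 of them is not reported here) and the 2 genes most correlated with each subunit. Alternatives were other pseudocounts (0.1 and 5), filters, scalings, moderation and threshold, fits of the compared clones only, the replicate number as a block, and each library left out in turn. Promoter windows were those of RefSeq on GRCm38.p6, with an entry for 8 of the 9 subunits.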

Additional observations from a re-analysis of the deposited data

How the results depend on the processing

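Over 19 alternatives, Fos, Fosb, Junb and Atf3 kept their direction and call in both R7-II comparisons. Of the 513 values of all subunits under these alternatives, 26 changed sign, 1 of which also newly passed, and 5 newly passed with the same sign. The log2 fold change of Fos ranged from 0.54 to 1.02 against R7-I and from 0.55 to 0.94 for R7-III, with the largest adjusted p of 0.00978 from limma after quantile normalization. That of Fosb against R7-I ranged from 0.84 (pseudocount 5) to 2.14 (pseudocount 0.1).

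Median-of-ratios scaling turned the sign of Fosl2 (-0.15), Jun (-0.11) and Jund (-0.10) between R7-II and R7-I, of Fosl1 (-0.013), Jund (-0.051) and Maff (-0.036) between R7-II and R7-III, and of Fosl2 (-0.0036) between R7-III and R7-I. Quantile normalization turned Fosl2 (-0.25) and Jun (-0.25) between R7-II and R7-I, Fosl1 (-0.061) and Maff (-0.13) between R7-II and R7-III, and Fos (-0.055) and Fosl2 (-0.037) between R7-III and R7-I. With quantile normalization Fosl2 passed the threshold against both clones (-0.25 and -0.21, adjusted p = 0.00303 and 0.00738 from limma), Maff against R7-I (-0.37, adjusted p = 0.00363) and Jun against R7-III (-0.46, adjusted p = 0.00513). The cause was not tested.

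When single libraries were dropped, the R7-II and R7-I difference ranged from -0.082 to 0.041 for Maff, -0.021 to 0.035 for Fosl2 and -1.2e-05 to 0.14 for Jun. The R7-II and R7-III difference ranged from -0.012 to 0.19 for Fosl1, -0.0010 to 0.13 for Maff and -0.064 to 0.018 for Fosl2, and the R7-III and R7-I difference from -0.069 to 0.074 for Jund and -0.0024 to 0.074 for Fosl2. The genes passing between R7-III and R7-I were 953, rose in number to 2142 with a threshold of 0.05, and numbered from 436 (without R7-I replicate 1) to 1120 with 8 libraries. Jun passed against R7-III at the threshold of 0.05.

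Libraries with the same replicate number showed no strong shared deviation from their clone means, as 0 of 9 such pairs correlated above 0.1 (r from -0.04 to 0.09). This does not tell whether they were handled together. With the replicate number as a block, 6015, 5786 and 733 genes passed between R7-II and R7-I, R7-II and R7-III, and R7-III and R7-I, against 6358, 6077 and 953, and the block changed no call of a subunit.

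The TPM values limit precision through 3 libraries per clone and through an unknown read depth, so for low genes such as Fosb and Maff the counting error is unknown.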

Other observations

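Heat shock genes, whose products fold proteins, were mostly lower in R7-II. Of 7 tested, 4 were lower and 1 higher in both R7-II comparisons (5 and 0 after median-of-ratios scaling). Hspa8 was at 6697 ± 154 TPM in R7-I, 4772 ± 163 in R7-II and 5979 ± 58.8 in R7-III (SD, n = 3), with log2 fold changes of -0.49 and -0.33 (adjusted p = 2.18e-07 and 3.35e-06 from limma). Hspd1 and Hspe1, the mitochondrial chaperone pair, were lower by -0.44 and -0.36 and by -0.53 and -0.41. The gene called higher was Dnajb1, by 0.17 and 0.26, and only before scaling. Outside this list, Atf3, a stress-inducible gene, was lower, whereas the stress-induced partner Ddit3 was higher.

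The 6 erythroid genes summed to 22.1 to 73.3 TPM in R7-I, 1.30 to 15.1 in R7-II and 8.99 to 25.5 in R7-III, and 0 of 4 tested passed in either R7-II comparison with limma. Of the 11 T lineage genes, 9 were higher and 1, Cd5, was lower in both R7-II comparisons (7 and 1 after scaling), with Lat higher by 0.42 and 0.33 and Lck by 0.39 and 0.45.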
